A study of Mus musculus with 5 samples.

Results

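The genes that encode translation initiation and elongation factors were followed through 3 lists of chromatin binding sites from mouse embryonic stem cells (mESCs). They were taken as the protein-coding genes of GENCODE M21 (mm10) with symbols beginning Eif or Eef, which gives 69 genes. 68 of them lie on chromosomes 1 to 19 and X, out of 21755 protein-coding genes there. Eif2s3y, the Y-linked copy of the eIF2 gamma subunit, lies on a chromosome that the female cells lack, and was kept apart.

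Each list came from 1 ChIP-seq library made with a V5 antibody. The REX1 list was from female wild-type mESCs (129/Sv-Cast/Ei) with FLAG-V5-REX1. The RNF12 lists were from a female Rlim+/- line of the same strain, which keeps 1 intact Rlim allele, that stably expressed, from a CAG promoter vector, either FLAG-V5-RNF12 WT or the mutant FLAG-V5-RNF12(H569A,C572A). REX1 (Zfp42) is a zinc finger protein and a substrate of the RING ubiquitin E3 ligase RNF12 (Rlim), and H569A,C572A is a catalytically inactive RING mutant. RNF12 cells received 15 µM MG132, a proteasome inhibitor, for 3 h and were fixed with 2 mM DSG and 1% formaldehyde. Whether the REX1 cells received MG132, and how they were fixed, was not given in the sources used here. The study cites earlier ChIP-seq work for REX1 binding in mESCs, and the REX1 library may come from there. REX1 and RNF12 thus differ in tagged protein and line and perhaps in treatment, fixation and time of preparation, and these cannot be told apart. The study asked where RNF12 meets chromatin and whether this coincides with its substrate.

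The lists held 96050 (REX1), 97602 (RNF12 WT) and 98124 (RNF12 H569A,C572A) peaks. With 1 library for each there was no replicate error, so no list was tested against another. Peak strength was read as a percentile and was ranked only within a list. It is the rank of a peak's fold enrichment from the lowest, as a share of the list's peaks, with tied peaks at their mean rank. Percentiles of 1 gene in several lists are set side by side with no comparison of lists. Distances are from the nearest annotated TSS of the gene, which may be another TSS in another list. A peak list carries no expression level, so it could not check the cell type. Summits lay within 1 kb of a transcription start site (TSS) of Pou5f1, Nanog, Sox2 and Zfp42 in the REX1 list. Nanog lacked one in both RNF12 lists, and Zfp42 in the RNF12 WT list.

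Translation begins when eIF2, bound to GTP and the initiator tRNA, joins eIF1, eIF1A, eIF3 and eIF5 on the small ribosomal subunit. The eIF4 factors bind the mRNA cap and unwind the leader so that the start codon can be found, and eIF5B then joins the large subunit. eEF1A brings each aminoacyl-tRNA, with its nucleotide exchanged by the eEF1B subunits, and eEF2 moves the ribosome on by a codon. Control acts mainly at eIF2, which kinases phosphorylate and eIF2B recycles, and at eIF4E, which the eIF4E-binding proteins hold away from eIF4G. These genes are active in nearly every growing cell, and several of their mRNAs begin with an oligopyrimidine tract that places them under mTOR.

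At 16 of 61 of these genes the strongest REX1 summit within 1 kb of a start site lay within 50 bp of a short string beginning ATGGC (26.2%, 95% Wilson interval 16.8 to 38.4), where 15.4% of all genes with such a summit and 17.0% of CpG-rich ones did. The string searched, on both strands, was ATGGC followed by G or T, then A, C or G, then C, a family known for REX1 and its relative YY1. The 8 genes shown are those with such a string within 50 bp of their strongest REX1 promoter summit that had the highest REX1 percentiles. Each is given as 30 bases of GRCm38 (mm10), 5′ to 3′ on the strand of the string, with the string in capitals.
Eif4a1, chr11:69672568-69672597, minus strand: tgggttccaagATGGCTGCcccgccgcgag
Eif2d, chr1:131153253-131153282, plus strand: cgagtctcagcATGGCTGCctccagggttg
Eif4g2, chr7:111082690-111082719, minus strand: agtggaacaaaATGGCGGCcgcaggcggag
Eif2ak4, chr2:118388692-118388721, minus strand: ggcccccagccATGGCGGCcggggcaggcg
Eef2kmt, chr16:5255918-5255947, minus strand: cctgccccgcgATGGCGCCtgaggaccacg
Eef1b2, chr1:63176657-63176686, plus strand: gctaagtcaatATGGCGGCcacggcaacct
Eif3i, chr4:129600705-129600734, plus strand: ctggcgttttcATGGCGGCgtcctggggtg
Eif3b, chr5:140419268-140419297, plus strand: gctgcacgcacATGGCTCCgcgctagcggc
In 6 of the 8 the centre of the string lay within 13 bp of the summit. The exceptions were Eef2kmt and Eif3b, at 35 bp and -35 bp along the chromosome. The Eef2kmt string holds the annotated start codon of that gene. At Eif3i the string lies on the opposite strand, and its ATG is an annotated start codon on that strand, where the neighbouring gene Tmem234 is transcribed.

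REX1 and RNF12 summits were found at the promoters of nearly all of these genes. In the REX1 list 61 of 68 (89.7%, 95% Wilson interval 80.2 to 94.9) had a summit within 1 kb of an annotated TSS, where 67.5% of all protein-coding genes did. For RNF12 WT it was 64 of 68 (94.1%, 85.8 to 97.7) against 68.9%, and for RNF12 H569A,C572A 66 of 68 (97.1%, 89.9 to 99.2) against 67.7%. The intervals cover counting error only, and the shares over all genes include the translation factor genes.

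Most of these genes have CpG-rich promoters, and CpG-rich promoters as a class carried summits about as often. A promoter was called CpG-rich where the 500 bp around the gene's 5′ end held at least 50% G and C and an observed to expected CpG ratio of at least 0.6. This was true of 61 of the 68 genes (89.7%) and of 48.0% of all protein-coding genes. Among CpG-rich genes of any function the share with a summit was 96.6% (REX1), 97.3% (RNF12 WT) and 98.7% (RNF12 H569A,C572A). The CpG-rich translation factor genes stood at 91.8%, 96.7% and 100%. Their excess over all genes was thus not seen against genes of the same promoter class, and in the REX1 list 5 of these 61 (8.20%) lacked a summit, where 3.41% of CpG-rich genes did.

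**Figure D1:**
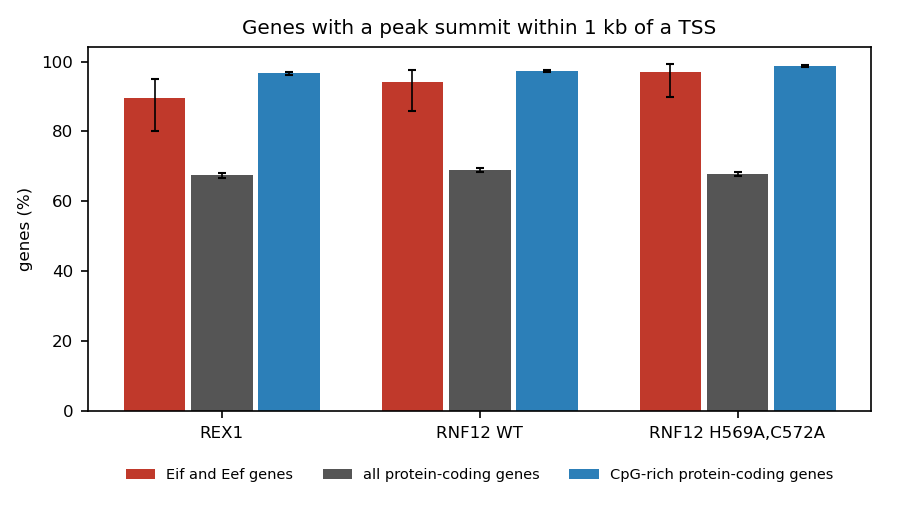
Share of genes (%) with a peak summit within 1 kb of a TSS in each list, for the 68 Eif and Eef genes (red), all 21755 protein-coding genes (grey) and 10438 CpG-rich protein-coding genes (blue), with 95% Wilson intervals as bars. The red bars stand at 89.7%, 94.1% and 97.1%, above the grey and below the blue.

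60 of the 68 genes (88.2%) had a promoter summit in all 3 lists, which 60.7% of all protein-coding genes and 93.8% of CpG-rich genes had. The RNF12 lists may share a control library, so presence in both is given as a description. No translation factor gene carried a summit in the REX1 list alone or the RNF12 WT list alone, as was true of all but 2.40% and 2.35% of protein-coding genes.

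Only 2 of the 68 genes lacked a promoter summit in every list. Eif4e1b encodes an eIF4E-like protein known from oocytes, and its nearest summits were 4848, 3070 and 5156 bp away (REX1, RNF12 WT and RNF12 H569A,C572A). Eif4ebp3 encodes the least studied of the eIF4E-binding proteins, and its nearest summits were 6229, 6241 and 6191 bp away. Neither has a CpG-rich promoter, and 25.1% of all protein-coding genes likewise had no summit in any list. At Eif2s3y the nearest summits lay 11852, 11858 and 11920 bp from its TSSs.

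Eif3j2 was the one gene found in a single list, RNF12 H569A,C572A, with a summit 63 bp past the TSS at the 85.2 percentile. Of all genes, 1.59% were in that list alone, near the 1.47% that 1 of 68 makes. It is a near relative of Eif3j1, which encodes the loosely bound j subunit of eIF3, and Eif3j1 had a promoter summit in all 3 lists. The nearest REX1 and RNF12 WT summits lay 24027 and 39348 bp from Eif3j2. The 36 bases around the Eif3j2 summit occur once in the reference genome. The same was so at all 61, 64 and 66 genes with a promoter summit, with 1 summit checked per gene. Whether reads moved between the copies was not tested.

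Genes present in the RNF12 lists and absent from the REX1 list were 4: Eif2ak1, Eif2b2, Eif3g and Eif4enif1. They were singled out after their values were seen. Eif3g, which encodes an RNA-binding subunit of eIF3, stood at the 96.4 percentile in the RNF12 WT list and at 91.1 in the RNF12 H569A,C572A list, with summits 69 and 42 bp upstream of its TSS. The nearest REX1 summit was 3433 bp away. The other 3 were weak for RNF12 WT, at 33.6 for Eif2ak1, 24.0 for Eif2b2 and 9.6 for Eif4enif1, which encodes the eIF4E transporter. For RNF12 H569A,C572A they stood at 84.8, 62.6 and 54.1. Their nearest REX1 summits were 28983, 25294 and 8998 bp away.

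The 100 bases upstream of the Eif3g TSS hold both RNF12 summits and no ATGGC family string. They are shown with each CG in capitals, of which there are 14.
Eif3g, chr9:20898624-20898723, minus strand: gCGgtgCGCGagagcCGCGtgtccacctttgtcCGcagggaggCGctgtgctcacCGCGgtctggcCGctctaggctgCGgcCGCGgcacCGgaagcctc
Presence in both RNF12 lists without REX1 was seen at 4 of 68 translation factor genes (5.88%) and 3.48% of all protein-coding genes, and among CpG-rich genes at 4 of 61 (6.56%) and 2.75%.

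**Figure D2:**
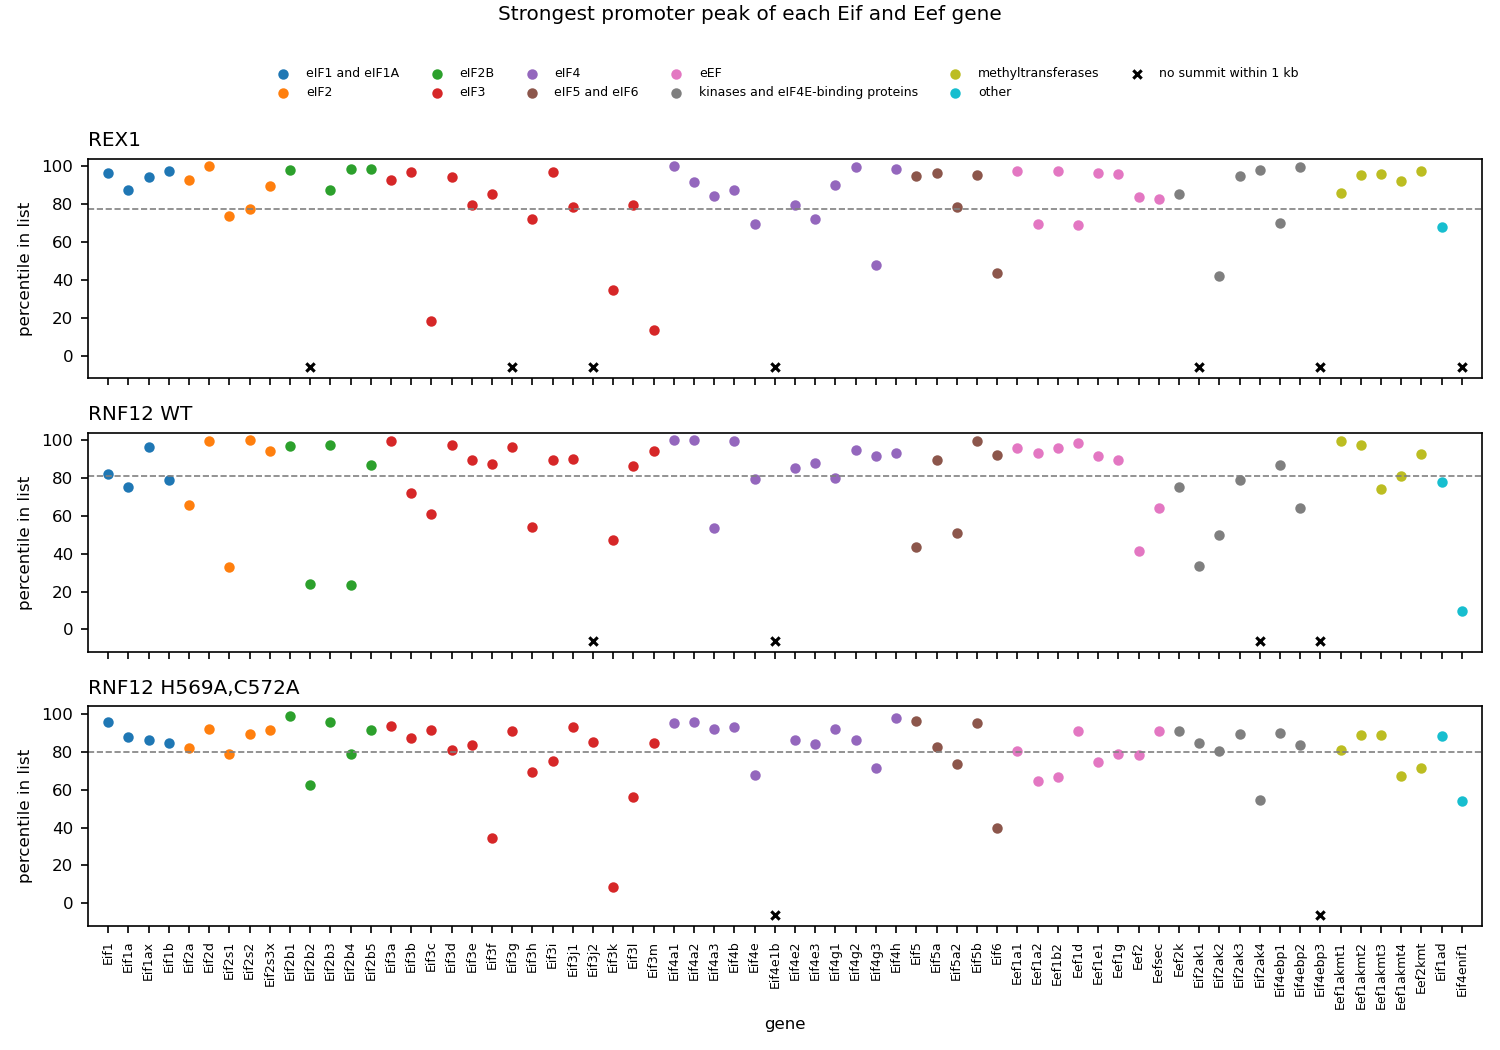
Percentile of the strongest promoter peak of each of the 68 genes within its own list, 1 panel per list, coloured by the role of the protein. Crosses mark genes with no summit within 1 kb, and the dashed line is the median of all protein-coding genes with one (77.5, 81.0 and 79.8), which most points exceed.

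Where they were bound, these genes lay in the upper part of each list. The median percentile of the strongest promoter peak was 90.2 for REX1 (95% interval of the median 84.2 to 95, 61 genes), 87.7 for RNF12 WT (79.5 to 92.1, 64 genes) and 85.1 for RNF12 H569A,C572A (81.2 to 89.1, 66 genes). All protein-coding genes with a promoter summit had medians of 77.5, 81.0 and 79.8, and CpG-rich ones 80.6, 84.7 and 83.0. The REX1 interval lay above the CpG-rich median, and the RNF12 intervals held it.

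At or above the 90th percentile were 31 of 61 genes (50.8%) in the REX1 list, 27 of 64 (42.2%) in the RNF12 WT list and 21 of 66 (31.8%) in the RNF12 H569A,C572A list. Over all genes these shares were 28.0%, 34.1% and 21.4%, and over CpG-rich genes 31.4%, 39.1% and 25.8%. The REX1 and RNF12 WT medians depended on taking the strongest peak. These genes have a median of 4 annotated TSSs, where all genes have 3, and 72.1%, 70.3% and 57.6% of them had 2 or more promoter peaks, near the 64.7%, 67.6% and 51.6% of all genes and the 68.8%, 73.8% and 54.1% of CpG-rich genes. When the summit nearest a TSS was ranked in its place, the medians were 78.7, 79.3 and 83.2 (REX1, RNF12 WT and RNF12 H569A,C572A), and those of all genes 63.5, 64.7 and 75.6. With the 20000 peaks of highest −log10 q, the medians were 94.9, 92.5 and 91.0 (REX1, RNF12 WT and RNF12 H569A,C572A), and those of all genes 90.7, 92.2 and 90.2.

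**Figure D3:**
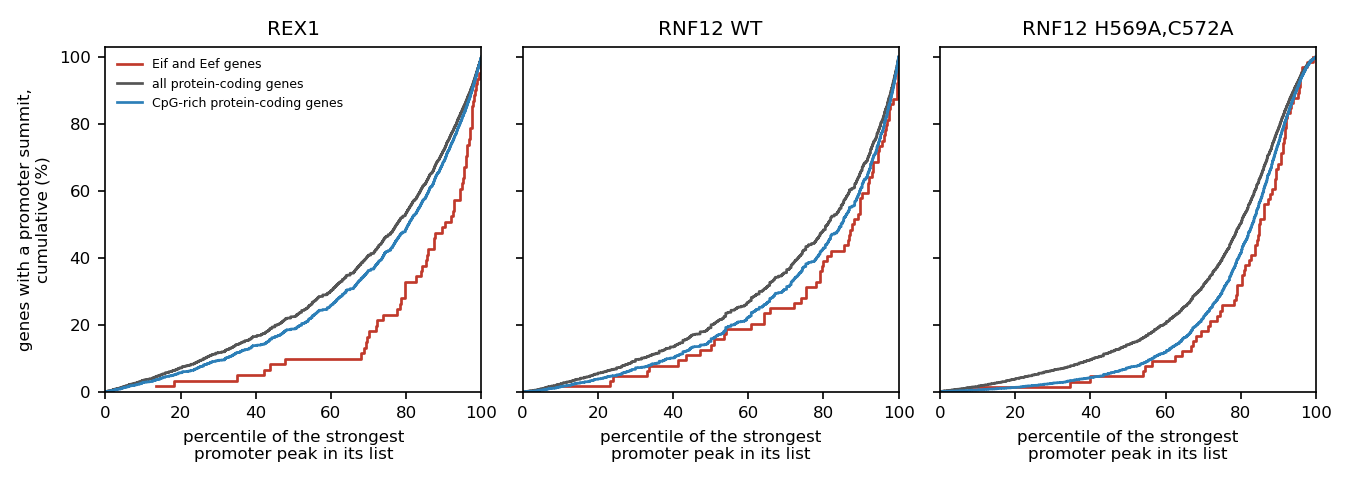
Cumulative share (%) of genes with a promoter summit against the percentile of their strongest promoter peak, by list, for Eif and Eef genes (red), all protein-coding genes (grey) and CpG-rich genes (blue). Below the 50th percentile lie 9.84%, 12.5% and 4.55% of the Eif and Eef genes (REX1, RNF12 WT and RNF12 H569A,C572A) and 22.4%, 19.1% and 14.0% of all genes, and the red line stands apart from the blue mainly in the REX1 panel.

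6 of the genes lie on chromosomes 10 and 12, where the RNF12 WT list was thin, with 5359 peaks against 10446 for REX1 and 8975 for RNF12 H569A,C572A. They are Eef1akmt3, Eef2 and Eif4ebp2 on chromosome 10 and Eif2b2, Eif2s1 and Eif5 on chromosome 12. Their RNF12 WT percentiles ran from 24.0 to 74.1 with a median of 42.4, where the other 58 genes had a median of 89.6. In the same list all protein-coding genes on these chromosomes had a median of 68.0 and those elsewhere 81.9. The same 6 genes had a median of 81.4 for RNF12 H569A,C572A, and the 5 of them bound by REX1 one of 95. Low RNF12 WT values of these genes, given below, cannot be told apart from this feature of the list.

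Genes of the eIF2 complex, which carries the initiator tRNA, were bound in all 3 lists at different strengths. Eif2s1, the alpha subunit that stress kinases phosphorylate, stood at 73.9, 33.1 and 79.1 (REX1, RNF12 WT and RNF12 H569A,C572A, the order used from here on), and lies on chromosome 12. Eif2s2, the beta subunit, reached 99.93 for RNF12 WT, the 68th strongest peak of that list, with its summit 6 bp upstream of the TSS. Its other percentiles were 77.6 for REX1 and 89.3 for RNF12 H569A,C572A. Eif2s3x, the X-linked gamma subunit, stood at 89.5, 94.4 and 91.5. The subunits of 1 complex thus spread over a range of ranks.

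2 genes grouped with eIF2 encode separate initiator tRNA binding proteins. Eif2d, also called ligatin, acts in initiation without eIF2 and in ribosome recycling. It stood at 99.95, 99.83 and 91.9, and its REX1 peak, with a fold enrichment of 28.9, was the 46th strongest of the list, with summits 99, 26 and 30 bp past the TSS. Eif2a stood at 92.7, 65.7 and 82.1.

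The eIF2B genes, whose products exchange the nucleotide on eIF2, split into strong and weak members. Eif2b1, the regulatory alpha subunit, had the highest percentile of any translation factor gene for RNF12 H569A,C572A (99.15, fold enrichment 30.0) and stood at 97.9 and 97.0 for REX1 and RNF12 WT. Its summits lay 4, 0 and 27 bp past the TSS, and it shares its promoter with Gtf2h3. Eif2b3 reached 87.4, 97.5 and 96.0, and Eif2b5, the catalytic subunit, 98.4, 87.0 and 91.8. Eif2b4 stood at 98.7, 23.3 and 79.1, and its strongest RNF12 WT summit lay 1694 bp from the REX1 one, at another TSS. Eif2b2, on chromosome 12, had no REX1 summit and stood at 24.0 and 62.6 in the RNF12 lists.

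The 4 eIF2 kinases, each of which answers another stress, were not all bound in the same lists. Eif2ak3 (PERK, endoplasmic reticulum stress) was bound in all lists, at 94.9, 79.1 and 89.4. Eif2ak2 (PKR, double-stranded RNA) was weaker, at 42.2, 50.1 and 80.4, and has no CpG-rich promoter. Eif2ak4 (GCN2, amino acid starvation) was among the strongest REX1 genes at 98.1 and stood at 54.5 for RNF12 H569A,C572A. It had no RNF12 WT summit nearer than 7686 bp. Eif2ak1 (HRI, haem deficiency) lacked REX1 and stood at 33.6 and 84.8 in the RNF12 lists.

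The eIF4 genes held the most strongly bound member. Eif4a1, the main RNA helicase of the cap-binding complex, stood highest of all translation factor genes in the REX1 list (12th of 96050 peaks, fold enrichment 35.6) and in the RNF12 WT list (41st of 97602, fold enrichment 13.7). For RNF12 H569A,C572A it stood at 95.2. The strongest REX1 and RNF12 WT summits lay 165 and 177 bp upstream of the nearest TSS, each within 50 bp of the ATGGCTGC string printed above. The strongest RNF12 H569A,C572A summit was elsewhere, 1042 bp from the REX1 one and inside the gene, and a weaker peak of that list (percentile 73.4) had its summit within 50 bp of the same string.

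Other eIF4 genes followed it. Eif4a2, the second helicase, reached 91.9, 99.89 and 95.8, and Eif4a3, which works in the exon junction complex, 84.2, 53.5 and 92.0. Eif4h and Eif4b, which stimulate the helicase, stood at 98.8, 93.2 and 97.7 and at 87.4, 99.78 and 93.4. Among the scaffold genes, Eif4g2 (DAP5), whose product does not bind eIF4E, stood at 99.49, 94.7 and 86.2. Eif4g1 stood at 90.2, 80.0 and 92.2 and Eif4g3 at 47.9, 91.9 and 71.3. Eif4e, the cap-binding protein itself, stood at 69.5, 79.5 and 68.0. Of the genes of the binding proteins, Eif4ebp2, on chromosome 10, stood at 99.84, 64.2 and 83.8 and Eif4ebp1 at 70.0, 86.9 and 89.8. Eif4ebp3 had no promoter summit.

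The genes of eIF3, the largest initiation factor, spread widely. Promoter summits were present at 12, 13 and 14 of its 14 genes, and percentiles ran from 13.4 to 97.0, from 47.2 to 99.59 and from 8.5 to 93.8. Eif3a, the scaffold subunit, stood at 92.8, 99.59 and 93.8. Eif3m was the weakest for REX1 at 13.4 and stood at 94.5 and 84.9 for RNF12, and Eif3c, another core subunit, stood at 18.3, 60.8 and 91.7. Eif3k, an accessory subunit, was low in all lists at 34.9, 47.2 and 8.5.

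Genes for start-codon selection and subunit joining were bound throughout, as were nearly all CpG-rich genes in each list. The 4 genes of eIF1 and eIF1A ran from 87.6 to 97.4 for REX1, with Eif1ax at 94.2, 96.5 and 86.1. Eif5b, the GTPase of subunit joining, stood at 95.5, 99.47 and 95.4. Eif5, which activates GTP hydrolysis by eIF2, reached 95 and 96.3 for REX1 and RNF12 H569A,C572A and 43.5 for RNF12 WT, and lies on chromosome 12. Eif6, which keeps the ribosomal subunits apart, stood at 43.7, 92.1 and 40.0.

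The elongation factor genes were all bound, 8 of 8 in every list. Among all protein-coding genes 67.5%, 68.9% and 67.7% had a promoter summit, and among CpG-rich ones 96.6%, 97.3% and 98.7%. With 8 genes, a full count cannot be told apart from the CpG-rich shares. Eef1a1, the main carrier of aminoacyl-tRNA, stood at 97.5, 95.7 and 80.4, and Eef1a2, its form in muscle and neurons, at 69.3, 93.1 and 64.5. Of the exchange factor genes, Eef1b2 reached 97.4, 96.1 and 66.8, Eef1d 68.8, 98.6 and 90.8, and Eef1g 95.9, 89.3 and 78.8. Eef1e1, a synthetase complex protein, stood at 96.3, 91.8 and 74.5. Eef2, the translocase, lies on chromosome 10 and stood at 84.0, 41.3 and 78.1.

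Group medians of the elongation genes were 90, 92.5 and 78.5, the last near the 79.8 of all genes. The genes for methyltransferases that modify elongation factors were also bound in all lists (5 of 5), among them Eef1akmt2 at 95.5, 97.7 and 89.1. That count too is to be read against the shares of CpG-rich genes. Eif1ad, named for its eIF1A-like domain, was the only gene of the remaining group found in all 3 lists, at 68.0, 78.1 and 88.3.

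Summits sat close to the start sites. The median distance of the nearest summit from a TSS was 43.0 bp (27.0 to 55.0), 48.0 bp (36 to 66.0) and 62.0 bp (46.0 to 85.0). All genes with a promoter summit had 59.0, 63.0 and 66.0 bp, and CpG-rich ones 52.0, 56.0 and 59.0 bp, which lie inside these intervals. Within 300 bp lay 60 of 61, 63 of 64 and 65 of 66 of these genes, which was 98.4%, 98.4% and 98.5%, and over all genes 90.5%, 91.5% and 90.4%. With the 20000 peaks of highest −log10 q in each list, the REX1 median was 75.0 bp and that of all genes 68.0 bp, so that the direction of the difference turned. For RNF12 H569A,C572A it turned when only summits within 300 bp were used (61.0 bp against 56.0 bp) and was nil with TSSs of protein-coding transcripts (84.0 bp in both). With 1 TSS per gene the medians were 90, 94.0 and 97.5 bp, and those of all genes 116, 124 and 131 bp.

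**Figure D4:**
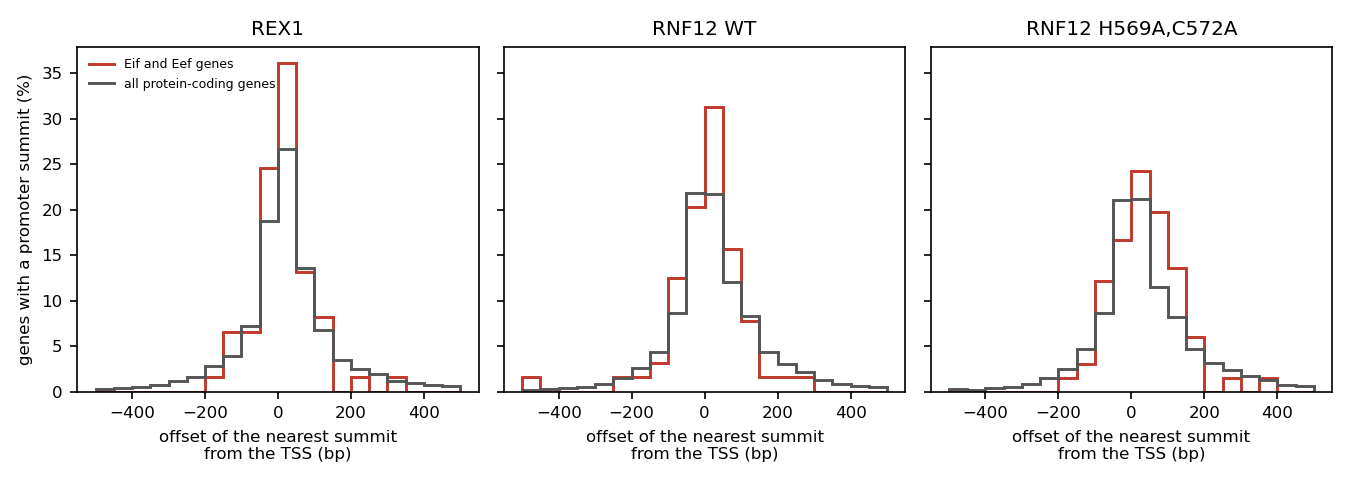
Signed offset (bp, in 50 bp bins; positive is downstream) of the summit nearest a TSS, as the share (%) of genes with a promoter summit, for Eif and Eef genes (red) and all protein-coding genes (grey). Offsets beyond 500 bp are not drawn. Both outlines peak at the TSS, and 57.4%, 50% and 65.2% of the Eif and Eef genes had a downstream summit, where 59.9%, 56.6% and 57.1% of all genes did.

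At the same gene the summits nearest a TSS in different lists were often near each other. The median separation was 90.5 bp between REX1 and RNF12 WT (60 genes), 81.0 bp between REX1 and RNF12 H569A,C572A (61 genes) and 63.0 bp between the RNF12 lists (64 genes). Over all genes it was 124, 131 and 112 bp. Separations of at most 100 bp were found at 55.0%, 57.4% and 64.1% of the translation factor genes and at 45.2%, 43.6% and 47.2% of all genes. These values do not describe the strongest summits, which can lie at different TSSs of a gene.

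The share of genes with an ATGGC family string was higher in the REX1 list than in the RNF12 lists, both for these genes and for all genes, and the difference between lists was not tested. Within 50 bp of a REX1 promoter summit they were present at 21 of 61 genes (34.4%, 23.7 to 47.0), where 20.5% of all genes and 22.3% of CpG-rich genes had one. The RNF12 WT share was 11 of 64 (17.2%, 9.88 to 28.2) against 10.6%, and the RNF12 H569A,C572A share 8 of 66 (12.1%) against 8.82%. Among these genes, the 16 with a string at their strongest REX1 summit had a median REX1 percentile of 96.7 and the 45 without one 85.5. Over all genes the same medians were 92.2 and 73.9. For RNF12 WT these genes had medians of 86.9 with a string (10 genes) and 87.7 without (54 genes), and all genes 88.3 and 80.5. For RNF12 H569A,C572A they had 78.1 (5 genes) and 86.1 (61 genes), and all genes 83.5 and 79.5.

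The YY1 core word AAGATGGC, whose last 5 letters can be the first of a family string, was also present. It lay within 50 bp of a REX1 promoter summit at 14 of 61 genes (23.0%, 14.2 to 34.9), and at 6.36% of all genes and 7.29% of CpG-rich genes. The genes were Eef1a1, Eef1akmt4, Eef1e1, Eef2k, Eif2b5, Eif2s3x, Eif3b, Eif3e, Eif3f, Eif4a1, Eif4a3, Eif4e, Eif4g2 and Eif5. For RNF12 WT it was 6 of 64 (9.38%) against 2.89% of all genes, and for RNF12 H569A,C572A 5 of 66 (7.58%) against 2.58%. At the strongest summit alone the word was found at 9 of 61 genes for REX1 (14.8%, all genes 4.80%), 5 of 64 for RNF12 WT (7.81%, all genes 1.81%) and 1 of 66 for the RING mutant (1.52%, all genes 1.91%), so for the mutant the direction turned. At Eif4a1 the word runs into the family string, as the printed site shows, and at Eif4g2 they are separate. Neither word is evidence of which protein bound.

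The 101 bases centred on the Eif4g2 summit are shown because both words occur there, with the family string in capitals and the YY1 core word in lower case near the start.
Eif4g2, chr7:111082665-111082765, minus strand: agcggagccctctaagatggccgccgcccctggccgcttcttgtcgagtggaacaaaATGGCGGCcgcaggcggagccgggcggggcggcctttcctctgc
A second pair of strings was seen at Eif4a3, whose first string holds the annotated start codon.
Eif4a3, chr11:119299914-119300014, minus strand: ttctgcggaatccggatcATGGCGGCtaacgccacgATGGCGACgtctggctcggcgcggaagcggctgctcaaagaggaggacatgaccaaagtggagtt
A string whose ATG is an annotated start codon lay near a REX1 summit at 9 of 61 genes (14.8%, 7.96 to 25.7). The share was 4.86% of all genes and 5.82% of CpG-rich genes. Codons for Met and Ala at the start of a protein can spell such strings, so at these genes coding sequence and string are the same bases.

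**Figure D5:**
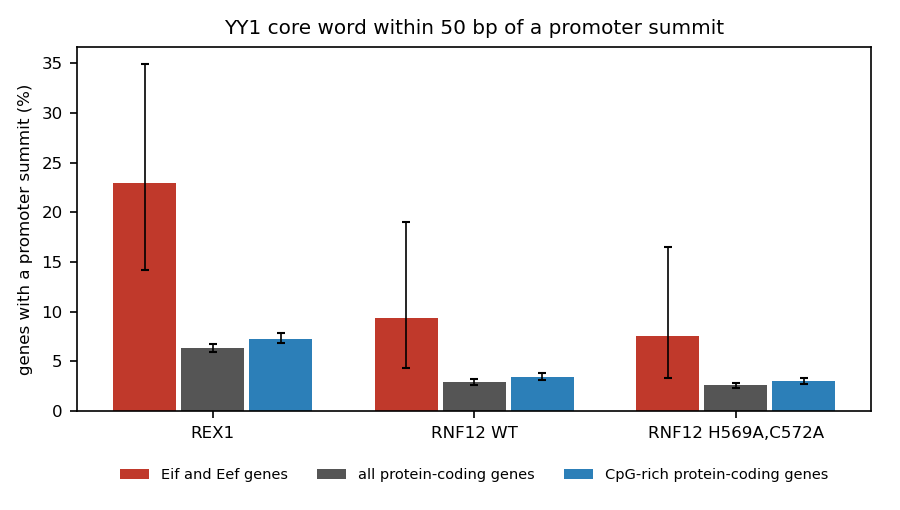
Share (%) of genes with the YY1 core word within 50 bp of a promoter summit, of those with a promoter summit in that list, for Eif and Eef genes (red), all protein-coding genes (grey) and CpG-rich genes (blue), with 95% Wilson intervals. For REX1 the red bar stands at 23.0% and the others at 6.36% and 7.29%, while the red intervals for the RNF12 lists are wide, from 4.37% to 19% and from 3.28% to 16.5%.

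The strings were frequent at these promoters whether or not summits were used to look for them. Within 250 bp of the gene's 5′ end a family string was present at 22 of 68 genes (32.4%, 22.4 to 44.2) and at 13.9% of all genes, and the YY1 core word at 8 (11.8%) and at 4.79%. A transcript that starts with C and 4 pyrimidines, as oligopyrimidine mRNAs do, was annotated for 14 (20.6%) and for 8.59%. These shares were not computed for CpG-rich genes, so whether promoter class accounts for the differences was not tested. REX1 promoter summits were present at 21 of the 22 genes with a family string (95.5%) and at 40 of the 46 without one (87.0%), and over all genes the shares were 84.1% and 64.8%. RNF12 WT summits were at 90.9% and 95.7% of these genes (all genes 84.6% and 66.4%), and RNF12 H569A,C572A summits at 100% and 95.7% (all genes 83.3% and 65.2%), so over all genes the contrast was much alike in the 3 lists.

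13 of the 68 genes share a promoter region with another protein-coding gene, so a summit there cannot be given to either. All 13 had a promoter summit in every list. Without them the shares were 87.3%, 92.7% and 96.4% of 55 genes.

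Summits inside the genes and over 1 kb from any of their TSSs were counted apart. There were 64 in 32 genes (47.1% of 68), 63 in 24 genes (35.3%) and 49 in 28 genes (41.2%), where 45.4%, 48.1% and 46.3% of all protein-coding genes held at least 1. Most lay in introns, at 41, 34 and 32 of these.

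Other genes of translation also carried promoter summits. Of 16 genes for release, recycling and initiation partners, summits were at 16, 16 and 15 (REX1, RNF12 WT and RNF12 H569A,C572A), with Mcts1 missing from the last. Of 21 cytosolic aminoacyl-tRNA synthetase and scaffold genes they were at 21, 20 and 21, with median percentiles of 90.8, 83.3 and 66.8. Of 9 mitochondrial translation factor genes they were at 8 in each list, with medians of 67.7, 76.2 and 56.8, below the 77.5, 81.0 and 79.8 of all genes. The summit counts of these lists, like those of the Eif and Eef genes, are to be read against the shares of CpG-rich genes given above. Stress response and mTOR genes had them at 11 of 11 annotated records in every list, and so had 9 of 9 translation factor genes known for oligopyrimidine mRNAs, whose medians were 85.4, 89.6 and 78.8.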

How the data were processed

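ChIP-seq peaks of FLAG-V5-REX1, FLAG-V5-RNF12 WT and FLAG-V5-RNF12(H569A,C572A), 1 library each, were used as deposited. The 2 control libraries were not analysed here, and which control stands behind each list was not settled. Per the submitters' processing notes, the tools were Trim Galore 0.6.7, Bowtie2 2.5.0, SAMtools 1.10 and MACS2 2.2.7.1, on mm10. The deposited values per peak are the fold enrichment, a ratio of signal to control made by the authors with MACS2, and −log10 p and −log10 q. The deposited score column was not used. The smallest −log10 q was 1.31 in each list. The authors' read totals were not in the files, so the depth is unknown and a missing peak does not show absence of binding.

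Summits were assigned to every GENCODE M21 TSS of a gene within 1 kb, with pandas 2.3.3, numpy 2.4.6 and scipy 1.17.1 in Python 3.11.15. Scripts were tested on simulated data. Sequences came from RefSeq GRCm38, and strings were searched on both strands. Intervals are 95% Wilson intervals for shares and order-statistic intervals for medians, and treat genes as independent, which neighbours are not. With 1 library per list no test was made. The members and lists were chosen with earlier results of these data known. Genes were named if absent from all lists or in 1 list, if among the 5 highest of a list, if highest in their group on average, or if they encode eIF2, its kinases, eEF1 or eEF2. Other subunits and regulators named to complete a group, such as Eif2b5, Eif4a3, Eif4e and Eif6, were chosen after their values were seen. Alternative settings varied the peak threshold, distance, TSS set, summit, ranking, chromosomes and gene set, and others were added after the data were seen. The stress and mTOR list holds 10 symbols, of which Ddit3 has 2 gene records.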

Additional observations from a re-analysis of the deposited data

How the results depend on the processing

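Of 106 values recomputed under an alternative, 92 moved by less than the spread defined for them and 14 by more. That sorting used the values of the translation factor genes alone, so the direction against all genes could still turn within the 92. With the 20000 peaks of highest −log10 q, promoter summits were present at 69.1% (REX1), 67.6% (RNF12 WT) and 55.9% (RNF12 H569A,C572A) of the genes, against 35.3%, 40.3% and 28.4% of all genes. A summit in all 3 lists was then found at 26 of 68 genes, and at 3113 of all 21755 protein-coding genes. The median distance for REX1 was then 75.0 bp (all genes 68.0 bp, a turned direction, as for RNF12 H569A,C572A at 300 bp, with 61.0 against 56.0 bp), and the median percentiles for RNF12 WT and RNF12 H569A,C572A 92.5 and 91.0 (all genes 92.2 and 90.2). With 1 TSS per gene the median distances were 90, 94.0 and 97.5 bp (all genes 116, 124 and 131 bp). With TSSs of protein-coding transcripts that for REX1 was 56.0 bp (all genes 76.0 bp). Ranking by −log10 q gave a median percentile of 93.1 for RNF12 WT (all genes 84.7). Ranking the summit nearest a TSS, an alternative chosen after seeing the data, gave 78.7 for REX1 and 79.3 for RNF12 WT (all genes 63.5 and 64.7). The cause of these shifts was not tested. Calling promoters CpG-rich at any TSS, also chosen after seeing the data, placed 65 of the 68 genes in that class, of which 92.3%, 96.9% and 100% had summits, against 96.4%, 97.2% and 98.5% of all genes in it. No paired analysis was possible because each list is 1 library. With unknown depth, a gene without a summit was not detected, not shown to be unbound.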
